A study of Mus musculus with 20 samples.

Results

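The response of fat-1 transgenic mouse hearts to ischemia-reperfusion (IR) was measured by RNA-seq of ventricular tissue. The comparison took 10 of the 20 hearts of the study, 5 Fat1-IR and 5 Fat1-Con, chosen by their genotype and perfusion labels and not by any measured value. fat-1 mice express a worm n-3 fatty acid desaturase, an enzyme that makes n-3 from n-6 polyunsaturated fatty acids, and the promoter that drives the transgene is not given in the sources used here. Both groups carried the transgene, came from 3-month-old mice and were isolated hearts on a Langendorff apparatus, in which the coronary vessels are perfused with buffer and no blood. Fat1-IR hearts were equilibrated for 40 min, made globally ischemic for 20 min and reperfused for 1 h, and Fat1-Con hearts were perfused for 120 min without a stop. Fat1-Con is therefore a perfused control and not a fresh heart. The other 10 hearts, 5 WT-IR and 5 WT-Con hearts of wild-type mice, entered the same model and served to ask where the fat-1 response differed from the wild-type response.

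When blood or buffer returns to a heart after ischemia, proteins have partly unfolded, ATP has run down and calcium and radicals surge. Cells answer within the hour through transcription factors that already exist: HSF1 switches on chaperones (the heat shock proteins, which refold damaged proteins), MAP kinases switch on immediate-early genes such as Fos and Jun, and NF-kB and interferon signaling drive inflammatory genes. Perfused hearts hold cardiomyocytes, endothelium, fibroblasts, mural cells and resident macrophages, and RNA of the whole tissue mixes them, so fewer cells of a type and less RNA per cell cannot be told apart.

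The fat-1 libraries held 17717338 to 25993336 fragments assigned to genes. Values are FPKM (fragments scaled to the exon length of the gene and to the assigned fragments of the library), tests were run with limma on log2(FPKM + 0.1), and a gene was called higher or lower where the adjusted p was below 0.05 and the change exceeded 1.5-fold. Markers of cardiomyocytes, the contractile cells, were high in every fat-1 heart, with a mean log2 of 9.21 to 9.58 in Fat1-IR and 9.27 to 9.31 in Fat1-Con. Of the 13 marker lists checked, 11 had no called member, and the exceptions were the adipocyte gene Cfd (higher) and the macrophage gene Timd4 (lower). Fat1-IR hearts 1 and 4 stood apart. In Fat1-IR 1 the mitochondrial genome gave 13.9% of the fragments, against 31.1% to 36.8% in the other Fat1-IR hearts and 32.3% to 35.6% in Fat1-Con, and atrial markers had a mean log2 of 5.58, a level approached by Fat1-Con 4 (4.73). Fat1-IR 4 had lymphocyte markers at a mean log2 of 2.20, against at most -1.81 in the other 9 fat-1 hearts, and neutrophil markers at -1.16, against at most -2.61. Adipocyte markers were higher in Fat1-IR 1, 5 and 4 (2.34, 1.45 and 0.50) than in any Fat1-Con heart (at most -1.18). Among the WT hearts, which share the spread estimate and enter the interaction, WT-Con 5 stood apart with 15.3% mitochondrial fragments, against 31.6% to 33.9% in the other WT-Con hearts. The part these hearts played in the results was not tested by itself. Counts are given with and without Fat1-IR 1 and 4, and for the interaction, the calls and several lists also without WT-Con 5.

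Of 18219 genes tested, 236 (1.30%) were called higher and 128 (0.703%) lower in Fat1-IR than in Fat1-Con. Among the called genes, 228 of the 236 and 114 of the 128 had no overlap between the 5 Fat1-IR and the 5 Fat1-Con hearts, while over all genes 769 (4.22%) had every Fat1-IR heart above and 448 (2.46%) every Fat1-IR heart below the Fat1-Con hearts. Protein-coding genes made up 196 of the higher and 110 of the lower calls. A fold change over 4 was reached by 35 genes that rose and by 7 that fell. Over all genes tested the median was 0.08 on the log2 scale. The split of calls depended on the scaling: 64.8% of the calls were higher with FPKM and 54.1% with median-of-ratios scaling (209 higher, 177 lower). Leaving out Fat1-IR 1 and 4, 129 genes were called higher and 116 lower, and with WT-Con 5 left out as well 216 higher and 234 lower (48% higher).

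**Figure D1:**
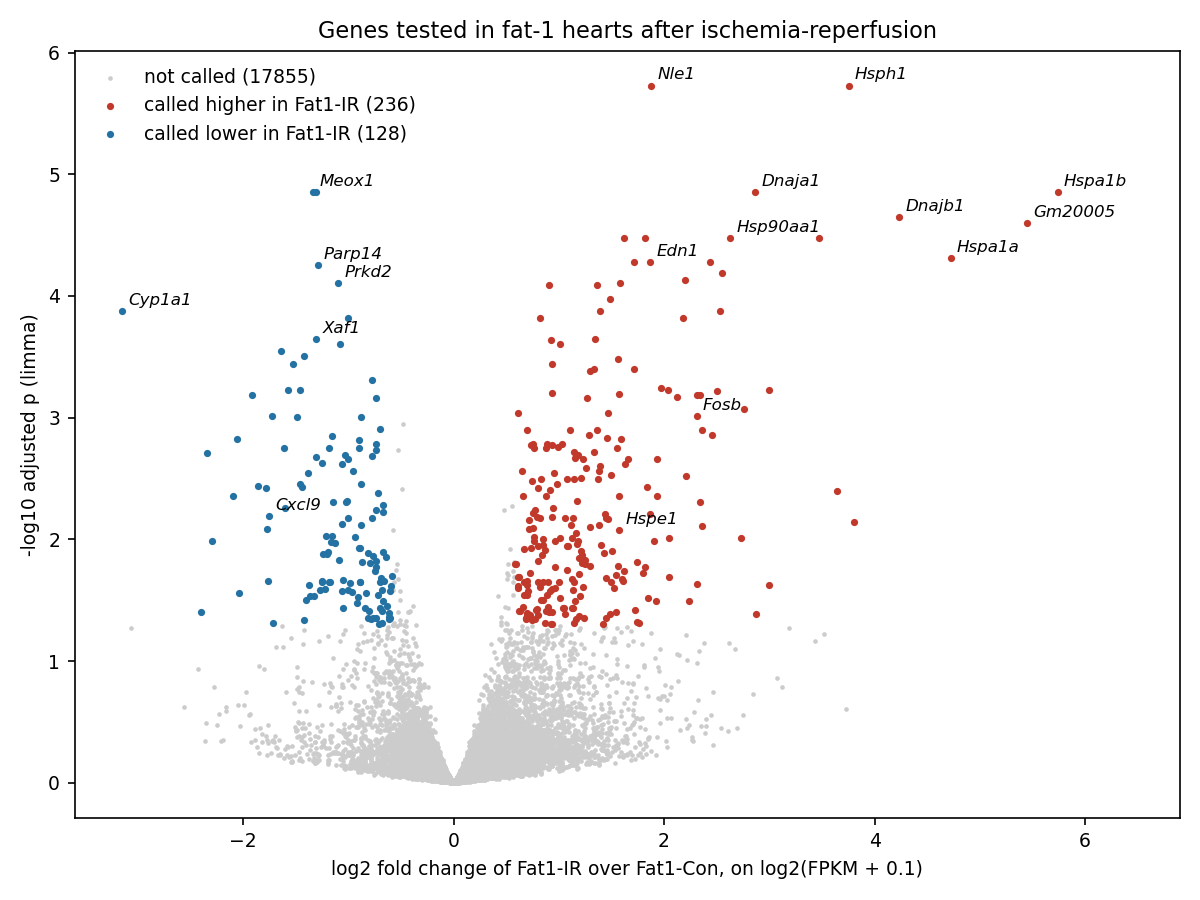
Each point is a gene, with the log2 fold change of Fat1-IR over Fat1-Con on the x axis and -log10 of the limma adjusted p on the y axis; red points are the 236 genes called higher and blue points the 128 called lower. Chaperone genes such as Hsph1, Dnaja1 and Hspa1b lie at the upper right together with Nle1.

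Heat shock genes rose, among them the called gene with the largest log2 fold change of all, Hspa1b. HSP70 proteins bind exposed hydrophobic stretches of unfolded clients. Of 20 HSP70 and HSP110 genes and cofactors tested, 5 were called higher and 0 lower, with a median log2 fold change of 0.37. The shares over all genes were 1.30% called higher and 0.703% called lower. Hspa1b, the stress-inducible HSP70, had 833, 937, 719, 706 and 998 FPKM in Fat1-IR hearts, against 17.0, 16.2, 5.11, 22.6 and 27.3 FPKM in Fat1-Con hearts. The lowest Fat1-IR heart was thus far above the highest Fat1-Con heart, and the log2 fold change was 5.74 ± 0.58 (SE, limma adjusted p = 1.39e-05). Its neighbour Hspa1a averaged 409 ± 72.5 FPKM in Fat1-IR and 17.1 ± 7.35 FPKM in Fat1-Con (SD, n = 5 each). The transcripts of Hspa1a and Hspa1b are 99.1% identical over 2200 bases, so how reads were shared between them is uncertain and their separate values should be read together. Hsph1, an HSP110 that resets HSP70 for the next client, had 119, 110, 82.6, 83.0 and 111 FPKM in Fat1-IR, against 7.66, 6.67, 8.61, 5.67 and 8.32 FPKM in Fat1-Con, with a log2 fold change of 3.75 ± 0.31 (limma adjusted p = 1.87e-06). Stip1, the adaptor that hands clients from HSP70 to HSP90, rose less (log2 fold change 0.76 ± 0.13), and so did Hspa1l (1.19 ± 0.27). Hspa8, the constitutive HSP70 and far more abundant at baseline, averaged 533 ± 91.1 FPKM in Fat1-IR and 352 ± 45.3 FPKM in Fat1-Con, with overlapping hearts, and did not pass (adjusted p = 0.0784). Hspa4, another HSP110, had all 5 Fat1-IR hearts above the Fat1-Con hearts and did not pass either (log2 fold change 0.35 ± 0.12), with Fat1-IR 1 at 51.4 FPKM and the other 4 Fat1-IR hearts at 30.2 to 34.5 FPKM.

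HSP90 matures kinases and steroid receptors. Of its 17 genes and co-chaperones 4 were called higher and 0 lower (median 0.49), against 1.30% and 0.703% of all genes. Hsp90aa1, the inducible HSP90, had 494, 362, 282, 300 and 386 FPKM in Fat1-IR, against 73.7, 51.2, 45.1, 51.0 and 73.6 FPKM in Fat1-Con. Every Fat1-IR heart was above 280 FPKM and no Fat1-Con heart reached 74 (log2 fold change 2.63 ± 0.29, limma adjusted p = 3.34e-05). Hsp90ab1, the constitutive form, rose by a log2 fold change of 0.76 ± 0.15, and Fat1-IR 1 was its highest heart at 1026 FPKM, against 512 to 634 FPKM in the other 4 Fat1-IR hearts. The cofactors Ahsa2, related to the activator of the HSP90 ATPase, and Chordc1 rose by log2 fold changes of 0.91 ± 0.11 and 0.99 ± 0.17.

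DNAJ proteins deliver clients to HSP70. Of 24 tested, 2 were called higher and 0 lower (median 0.13), against 1.30% of all genes called higher. Dnajb1, the partner of inducible HSP70, had 251, 218, 182, 172 and 241 FPKM in Fat1-IR, against 12.9, 10.3, 5.94, 14.1 and 15.1 FPKM in Fat1-Con (log2 fold change 4.23 ± 0.45, limma adjusted p = 2.25e-05). Dnaja1 averaged 71.9 ± 16.1 FPKM in Fat1-IR and 9.70 ± 1.51 FPKM in Fat1-Con. For both genes every Fat1-IR heart was above every Fat1-Con heart. Of 8 small heat shock proteins and Bag3, which together hold and clear damaged contractile proteins in muscle, 2 were called: Hspb1 (HSP25) averaged 940 ± 257 FPKM in Fat1-IR and 345 ± 93.0 FPKM in Fat1-Con, and Bag3 205 ± 54.5 FPKM in Fat1-IR and 82.7 ± 5.62 FPKM in Fat1-Con. Cryab, the abundant lens and muscle crystallin, averaged 894 ± 80.5 FPKM in Fat1-IR and 811 ± 97.1 FPKM in Fat1-Con and did not pass (log2 fold change 0.14 ± 0.18), and neither did Hspb6 (230 ± 52.0 FPKM in Fat1-IR and 264 ± 33.2 FPKM in Fat1-Con).

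In the mitochondrial matrix, HSP60 and HSP10 form the folding chamber. Of 15 mitochondrial chaperones and proteases, 2 were called higher, the HSP60 gene Hspd1 and the HSP10 gene Hspe1 (median of the list 0.07). The share of all genes called higher was 1.30%. Hspd1 had 422, 264, 236, 244 and 261 FPKM in Fat1-IR, against 140, 129, 144, 135 and 145 FPKM in Fat1-Con. Hspe1 had 197, 123, 103, 124 and 126 FPKM in Fat1-IR, against 42.6, 33.6, 44.9, 50.1 and 51.4 FPKM in Fat1-Con. Both genes had Fat1-IR 1 as their highest heart, and in both the other 4 Fat1-IR hearts also lay above every Fat1-Con heart. Hspa9, the HSP70 of the matrix, had 285 FPKM in Fat1-IR 1, 167 to 172 FPKM in the other Fat1-IR hearts and 163 to 182 FPKM in Fat1-Con, and its log2 fold change of 0.14 ± 0.13 did not pass and was below 0 without Fat1-IR 1. The CCT chaperonin and prefoldin, which fold actin and tubulin, had 0 of 14 members called (median 0.23), and the chaperones of the endoplasmic reticulum and the unfolded protein response 0 of 20 (median 0.41). Without Fat1-IR 1 and 4 these medians were 0.03 and 0.04. Among the HSF factors and other genes listed as HSF1 targets, 4 of 18 were called higher: Slc5a3, an inositol transporter (3.34 ± 0.541 FPKM in Fat1-IR and 0.496 ± 0.108 FPKM in Fat1-Con), Zfand2a, Dedd2 and Irs2, the insulin receptor substrate. Serpinh1, the collagen chaperone HSP47, was chosen after its values were seen and averaged 161 ± 17.1 FPKM in Fat1-IR and 62.3 ± 14.0 FPKM in Fat1-Con.

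With Fat1-IR 1 and 4 left out, 3 of 20 HSP70 and HSP110 genes, 3 of 17 HSP90 genes, 2 of 24 DNAJ genes, 1 of 8 small heat shock genes and 1 of 15 mitochondrial chaperones were called higher. With WT-Con 5 left out as well, the counts were 4, 3, 3, 2 and 2. In the same order, the list medians without Fat1-IR 1 and 4 were 0.21, 0.23, -0.02, 0.15 and -0.01, against -0.03 over all genes. Under median-of-ratios, TPM and nuclear scaling each of these 5 lists kept its count of calls, and the median of the mitochondrial list was -0.0008 with nuclear scaling.

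**Figure D2:**
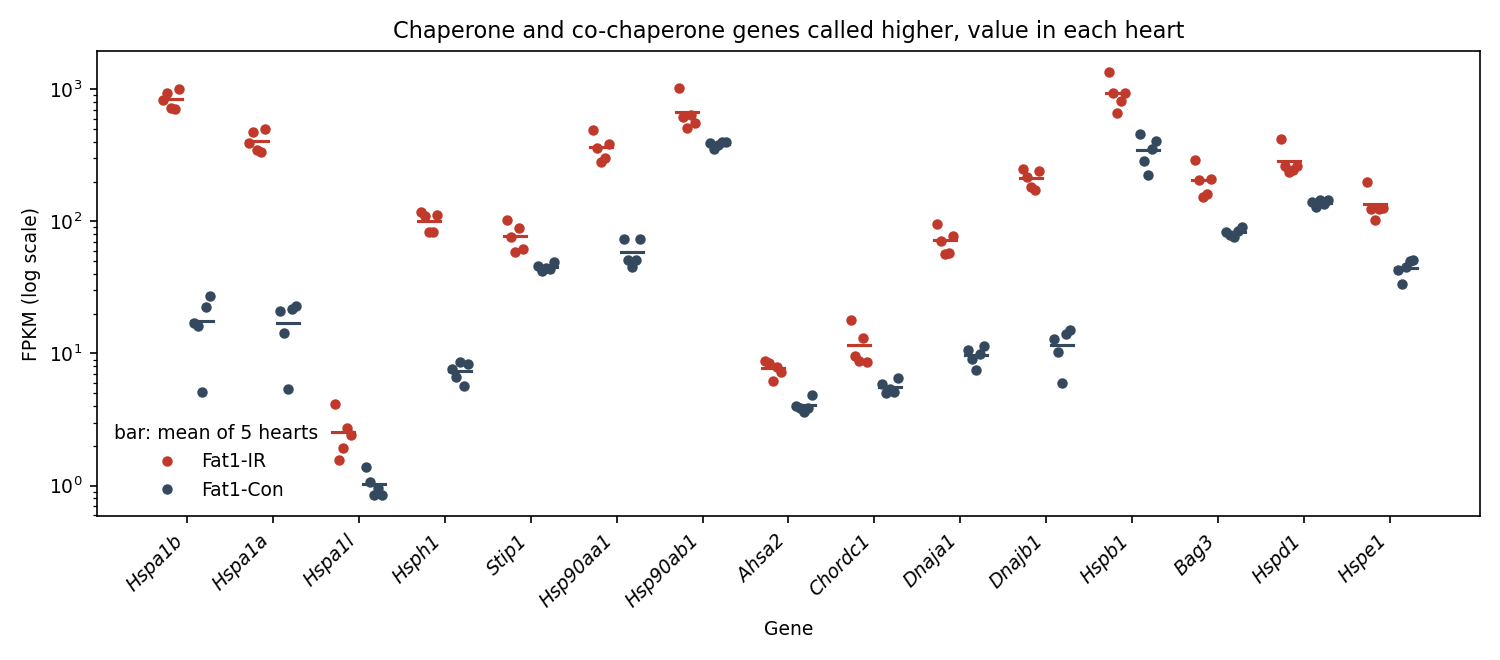
FPKM on a log axis of the 15 chaperone and co-chaperone genes called higher, with a red point for each Fat1-IR heart and a dark point for each Fat1-Con heart, and a bar at each mean. The groups do not overlap for any of the 15 genes, and the gap is widest for Hspa1b, Hspa1a, Dnajb1 and Hsph1.

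Heat shock factor 1 binds inverted repeats of GAA, and the sequences upstream of chaperone genes are shown because most of the called chaperones hold such letters. Promoter windows were taken from RefSeq (GRCm38.p6, the assembly also called mm10) from 250 bases before to 50 bases after the start, and both strands were searched for GAANNTTC and TTCNNGAA, which are each their own reverse complement. At least 1 match lay in 9 of 13 called chaperones with a window (69.2%), in 11 of 56 chaperones not called (19.6%) and in 17.0% of all 27025 genes with a window. A longer repeat of 3 units was found in 4 of the 13 called chaperones, in 1 of the 56 not called and in 0.662% of all genes. Of 142 genes with a window that were called higher outside the chaperone lists, 30 (21.1%) held the shorter motif. In the stretches below, all upstream of the start and written 5′ to 3′ on the strand of the gene, capitals mark the matches: Hspa1b at chr17:34959315-34959362 (minus strand), Hspa1a at chr17:34972233-34972280 (minus), Dnaja1 at chr4:40722324-40722371 (plus), Hspb1 at chr5:135887782-135887849 (plus), and the stretch between Hspe1 and the divergent Hspd1 at chr1:55088039-55088096 (plus).
Hspa1b: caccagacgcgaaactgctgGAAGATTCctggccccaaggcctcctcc
Hspa1a: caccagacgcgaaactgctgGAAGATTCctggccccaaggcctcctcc
Dnaja1: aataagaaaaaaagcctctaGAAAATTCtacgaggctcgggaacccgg
Hspb1: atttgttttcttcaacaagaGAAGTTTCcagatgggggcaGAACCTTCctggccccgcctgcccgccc
Hspe1: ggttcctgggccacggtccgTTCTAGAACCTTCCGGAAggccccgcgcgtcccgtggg
The stretches of Hspa1b and Hspa1a are the same, with the match beginning 104 bases before each start. Hspb1 has 2 matches, 117 and 97 bases before its start. The Hspe1 stretch holds 3 overlapping matches, the first 89 bases before the Hspe1 start, and is shared with Hspd1, the other mitochondrial chaperone that rose. A match is a description of letters and was not tested as a binding site.

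Several genes that the annotation does not class as protein-coding, here called noncoding, rose beside chaperone genes. The class holds lincRNAs, antisense transcripts, pseudogenes, small RNAs, processed transcripts and unclassified entries such as 2610306O10Rik. It is a label of the annotation, and whether its members make a protein was not tested. Of 39 noncoding genes called higher, 5 (12.8%) lay within 10 kb of a protein-coding gene called higher, against 1.21% of all 4480 noncoding genes tested. The lincRNA Gm20005 lies 5234 bp from Hsph1 on the opposite strand and had 16, 32, 28, 25 and 36 fragments (2.83 to 5.42 FPKM) in Fat1-IR and 0 in every Fat1-Con heart. Against a floor of 3 fragments per Fat1-Con library its mean was at least 7.69-fold higher in Fat1-IR. The processed pseudogene Gm8696 lies 1724 bp from Hspa1b on the same strand, and its mean was at least 3.44-fold higher by the same floor, with 0 fragments in every Fat1-Con heart. 2610306O10Rik lies inside Bag3 on the same strand, the processed pseudogene Gm12390 lies 5159 bp from Dnaja1 (10, 3, 2, 2 and 5 fragments in Fat1-IR, 0 in every Fat1-Con heart), and Gm49130 lies 1081 bp from Cmtm5. By the same floor of 3 fragments the mean of Gm12390 was at least 1.27-fold higher, so it lay close to detection. Gm48565 lies 10882 bp from Hspa8 on the same strand and averaged 1.17 ± 0.356 FPKM in Fat1-IR and 0.0131 ± 0.0293 FPKM in Fat1-Con. Of 14 processed pseudogenes that were called higher, 5 are copies of a called chaperone: Gm12346 and Gm5844 match Hsp90aa1 at 99.5% and 98.5%, Gm15542 and Gm7816 match Dnaja1 at 99.4% and 99.3%, and Hspd1-ps3 matches Hspd1 at 99.0%. How reads were shared between these copies and their parents was not tested, so their calls are uncertain. For another 9 processed pseudogenes called higher, the best-matching coding gene was not called. Whether the counting used strand is not given in the sources used here, so reads of 2610306O10Rik and of antisense transcripts may belong to the genes they overlap. The genes in this paragraph other than Gm20005, Gm15542, Gm48565 and Gm49130 were chosen after their values were seen.

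The immediate-early genes rose in part. Of 14 AP-1 genes, whose products pair as Fos-Jun dimers, 3 were called higher and 0 lower (median log2 fold change 0.65, against 0.08 over all genes). Over all genes 1.30% were called higher and 0.703% lower. Fos had 250, 289, 258, 173 and 258 FPKM in Fat1-IR, against 51.4, 32.6, 33.6, 60.6 and 72.3 FPKM in Fat1-Con (log2 fold change 2.34 ± 0.35, limma adjusted p = 0.000649). Fosb averaged 31.3 ± 5.86 FPKM in Fat1-IR and 6.31 ± 1.58 FPKM in Fat1-Con, and Jun 200 ± 46.4 FPKM in Fat1-IR and 66.8 ± 9.67 FPKM in Fat1-Con. Junb had every Fat1-IR heart above every Fat1-Con heart but did not pass (log2 fold change 0.89 ± 0.24, adjusted p = 0.0642). Of 24 other immediate-early genes 4 were called higher and 0 lower (median 0.68), namely the orphan nuclear receptors Nr4a1 and Nr4a2, the mRNA decay factor Zfp36l1 and Ier5l. Nr4a1 averaged 111 ± 35.2 FPKM in Fat1-IR and 39.5 ± 7.10 FPKM in Fat1-Con. Egr1 averaged 279 ± 61.8 FPKM in Fat1-IR and 118 ± 24.9 FPKM in Fat1-Con and did not pass (adjusted p = 0.0784). Ier2, chosen after its values were seen, had 112 FPKM in Fat1-IR 1, 37.4 to 54.9 FPKM in the other Fat1-IR hearts and 24.9 to 38.6 FPKM in Fat1-Con, and did not pass. Without Fat1-IR 1 and 4, 3 of 14 AP-1 genes and 1 of 24 other immediate-early genes were called higher. With WT-Con 5 left out as well, these counts were 3 and 4. The AP-1 count was 5 with the fat-1 hearts fitted alone, and the count of the other immediate-early genes was 7 in that fit and 2 under median-of-ratios scaling.

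Feedback inhibitors of MAP kinases and flow-responsive factors of endothelium were among the genes that rose. Of 17 DUSP and Sprouty genes 3 were called higher and 0 lower: the ERK phosphatase Dusp6 (log2 fold change 1.48 ± 0.19), the nuclear phosphatase Dusp1 (0.87 ± 0.18) and the receptor kinase inhibitor Spry1 (1.29 ± 0.21). Of 13 Krüppel-like factors 2 were called higher. Both counts stand beside 1.30% of all genes called higher and 0.703% called lower. Klf2, which endothelium turns on under flow, had 88.6, 52.3, 38.6, 32.7 and 54.5 FPKM in Fat1-IR, against 9.07, 6.70, 7.33, 10.6 and 9.25 FPKM in Fat1-Con. Klf4 had 18.4, 26.4, 19.9, 20.9 and 24.5 FPKM in Fat1-IR, against 7.24, 4.61, 5.87, 8.17 and 5.36 FPKM in Fat1-Con. Both were separated in all 10 hearts, with log2 fold changes of 2.55 ± 0.30 and 1.82 ± 0.20.

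Targets of BMP and Notch signaling gave 6 of 20 genes higher and 0 lower (median 0.40), against 1.30% and 0.703% of all genes. The inhibitors of helix-loop-helix factors Id1, Id2 and Id3 rose, and Id3 averaged 18.9 ± 3.75 FPKM in Fat1-IR and 7.25 ± 1.19 FPKM in Fat1-Con. The Notch targets Hey1 (log2 fold change 1.09 ± 0.23) and Hes1 (0.80 ± 0.19) and the ligand Bmp2 (1.14 ± 0.30) rose as well, and Bmp2 lost its call under 17 of 27 alternatives. The count was 3 of 20 without Fat1-IR 1 and 4, and 4 of 20 with WT-Con 5 left out as well. Sox17, a transcription factor of arterial endothelium, averaged 3.86 ± 0.658 FPKM in Fat1-IR and 1.13 ± 0.324 FPKM in Fat1-Con, and Gata2, also an endothelial and blood factor and chosen after its values were seen, 2.34 ± 0.548 FPKM in Fat1-IR and 0.708 ± 0.138 FPKM in Fat1-Con. Of 12 endothelial markers 0 were called, and their mean log2 was 4.0 to 4.55 in Fat1-IR and 3.94 to 4.17 in Fat1-Con.

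Among 20 vasoactive factors of endothelium, 3 were called higher and 0 lower, and of 21 angiogenic ligands and receptors 2 were called higher and 0 lower (1 under median-of-ratios or nuclear scaling). Among all genes 1.30% were called higher and 0.703% lower. With the fat-1 hearts fitted alone 5 vasoactive genes were called higher. Edn1, the vasoconstrictor endothelin, had 16.2, 9.57, 10.2, 8.20 and 11.9 FPKM in Fat1-IR, against 2.69, 3.02, 2.51, 3.23 and 3.24 FPKM in Fat1-Con (log2 fold change 1.87 ± 0.22, limma adjusted p = 5.24e-05). Thbd, the thrombin receptor thrombomodulin, rose by a log2 fold change of 0.77 ± 0.15, the plasminogen activator Plau by 1.14 ± 0.26, the caveola protein Cavin2 by 0.62 ± 0.10 and Rgcc, a regulator of the cell cycle, by 1.62 ± 0.18. Of 25 matrix genes, proteases and inhibitors 3 were called higher and 0 lower: the hyaluronan synthase Has1, the metalloprotease inhibitor Timp4 and the protease Adamts1. Timp4 was the only one of these 3 whose groups overlapped, by Fat1-IR 4 at 2.30 FPKM and Fat1-Con 4 at 2.53 FPKM.

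**Figure D3:**
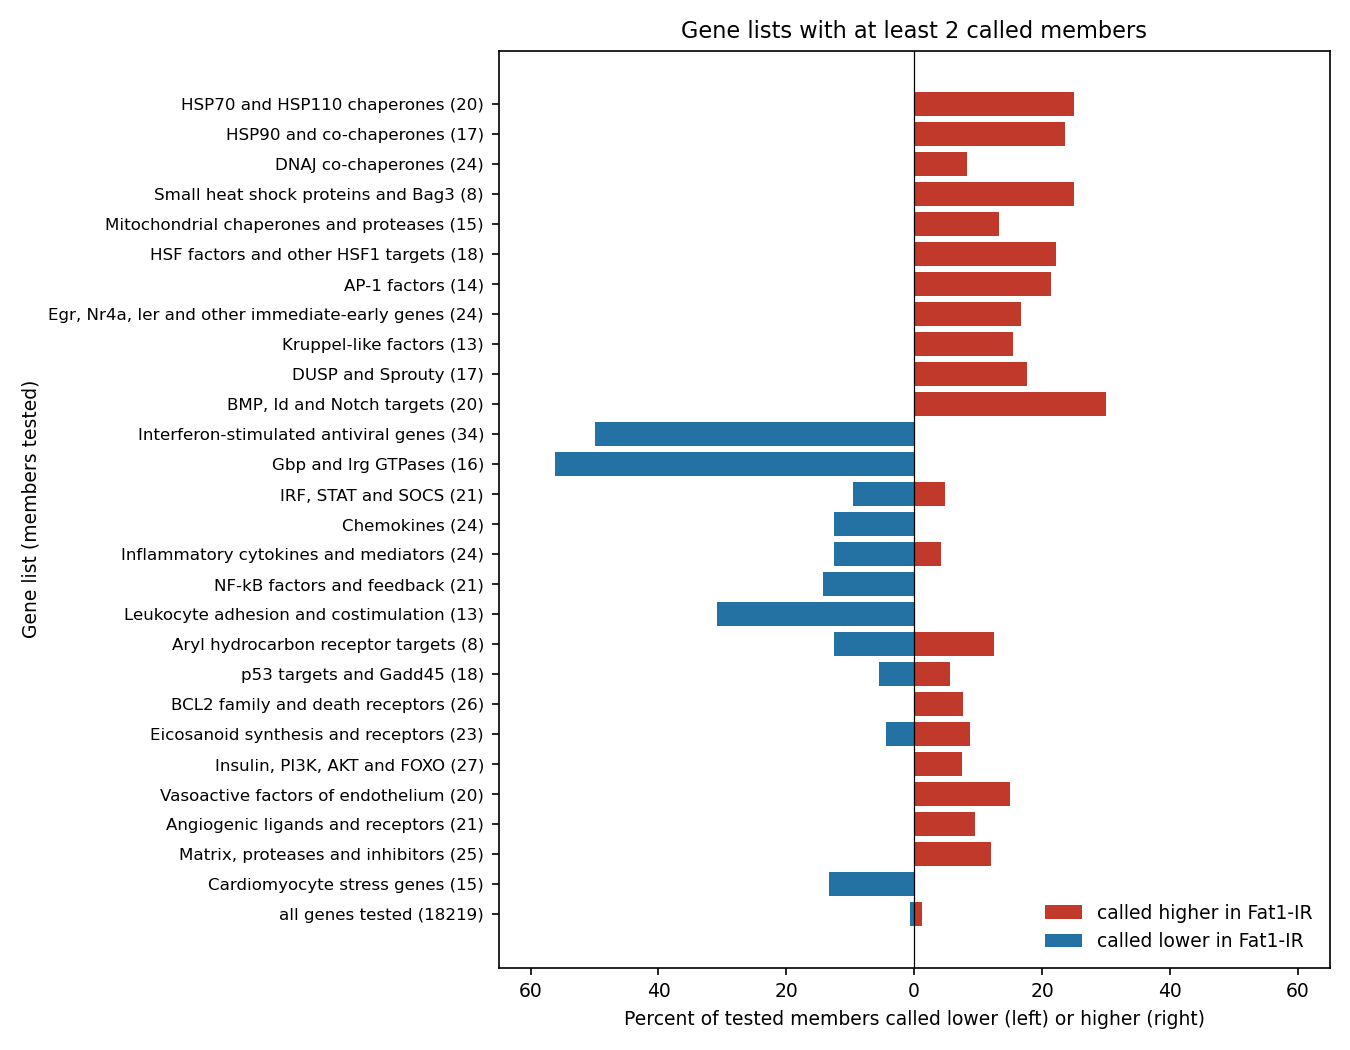
Bars give the percent of tested members of each gene list called higher (red, to the right) or lower (blue, to the left) in Fat1-IR, with the number of tested members in parentheses; lists with fewer than 2 called members are not drawn and the last row is all genes tested. Chaperone, immediate-early and BMP lists point right and interferon, GTPase and adhesion lists point left.

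Interferon-regulated genes fell. Of 34 antiviral genes that type I interferon induces, 17 were called lower and 0 higher (median log2 fold change -0.90), against 0.703% of all genes called lower. Ifit2, which binds viral RNA, had 9.94, 7.76, 7.48, 7.04 and 10.4 FPKM in Fat1-IR, against 32.1, 35.0, 46.7, 19.0 and 33.3 FPKM in Fat1-Con (log2 fold change -1.91 ± 0.29, limma adjusted p = 0.000649). Ifit1 had 14.6, 10.5, 9.54, 7.48 and 17.2 FPKM in Fat1-IR, against 36.5, 40.9, 55.0, 27.1 and 40.8 FPKM in Fat1-Con. For both genes the highest Fat1-IR heart stayed below the lowest Fat1-Con heart. Parp14, a mono-ADP-ribosyl transferase, averaged 5.96 ± 0.715 FPKM in Fat1-IR and 14.8 ± 1.99 FPKM in Fat1-Con, and Xaf1 1.99 ± 0.302 FPKM in Fat1-IR and 5.07 ± 0.675 FPKM in Fat1-Con. The kinase Cmpk2, the GTPase Mx1, the RNA sensor Ddx58 and Oasl2 also fell, by 1.73, 1.61, 0.90 and 1.16 on the log2 scale. Ifit3 and Ifit3b fell too, but their transcripts are 97.8% identical and reads may be shared. Isg15, the ubiquitin-like interferon product, had all 5 Fat1-IR hearts below the Fat1-Con hearts and did not pass (log2 fold change -1.23 ± 0.41, adjusted p = 0.154). Bst2 (tetherin, which holds virus particles on the cell) averaged 18.7 ± 6.8 FPKM in Fat1-IR and 16 ± 2.01 FPKM in Fat1-Con, with overlapping hearts and a sign that changed without Fat1-IR 1.

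The Gbp and Irg GTPases, which interferon gamma induces and which attack the vacuoles of intracellular pathogens, gave 9 of 16 genes lower and 0 higher (median -0.88). The shares over all genes were 0.703% lower and 1.30% higher. Gbp4 had 5.08, 4.15, 3.53, 6.97 and 4.29 FPKM in Fat1-IR, against 16.2, 13.1, 18.6, 11.4 and 15.9 FPKM in Fat1-Con. Gbp5 averaged 5.77 ± 1.54 FPKM in Fat1-IR and 17.0 ± 1.86 FPKM in Fat1-Con. Both were below every Fat1-Con heart in all 5 Fat1-IR hearts, with log2 fold changes of -1.64 ± 0.23 and -1.58 ± 0.23. Gbp3, Irgm2, Tgtp1 and Tgtp2 fell by 1.20, 0.95, 1.44 and 1.46 on the log2 scale, and the last of these pairs share 99.8% of their transcript, so the split between them is uncertain. The interferon-regulated lincRNA AW112010 averaged 12.5 ± 1.5 FPKM in Fat1-IR and 52.6 ± 8.53 FPKM in Fat1-Con. MHC class I genes and antigen processing, which interferon also raises, had 0 of 18 members called (median -0.01), and B2m averaged 307 ± 43.2 FPKM in Fat1-IR and 270 ± 39.2 FPKM in Fat1-Con. The counts were 13 of 34 antiviral genes and 8 of 16 GTPases without Fat1-IR 1 and 4. With WT-Con 5 left out as well, they were 21 and 8.

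Of 21 IRF, STAT and SOCS genes 2 were called lower, Irf7 (3.64 ± 0.577 FPKM in Fat1-IR and 6.61 ± 1.38 FPKM in Fat1-Con) and Irf5 (1.99 ± 0.452 FPKM in Fat1-IR and 3.08 ± 0.261 FPKM in Fat1-Con), and 1 was called higher, the cytokine inhibitor Socs3, with 45.1, 51.8, 48.1, 37.3 and 60.2 FPKM in Fat1-IR, against 14.9, 13.6, 14.2, 16.7 and 20.7 FPKM in Fat1-Con. Over all genes 0.703% were called lower and 1.30% higher. The 2 lower calls of the list were 0 under TPM scaling and 4 under nuclear scaling, and Irf7 and Irf5 each lost their call under 11 of 27 alternatives. Interferon beta itself, the gene Ifnb1, was chosen after its values were seen. It had 14.7, 10.5, 7.73, 5.87 and 16.6 FPKM in Fat1-IR, against 1.90, 2.90, 2.86, 3.59 and 2.26 FPKM in Fat1-Con (log2 fold change 1.92 ± 0.47, limma adjusted p = 0.0319). Its level was above that of every Fat1-Con heart in all 5 Fat1-IR hearts, and its call was lost under 9 of 27 alternatives.

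The promoters of interferon genes are shown because the response element that STAT and IRF factors bind, GAAA and GAAA with 2 bases of any kind between them, or the reverse complement TTTC and TTTC, searched on both strands, was common in them whether or not the gene fell. Among interferon genes with a window, it was in 11 of 18 called lower (61.1%) and in 9 of 16 not called (56.2%), against 3.99% of all genes with a window. The interferon genes that fell and those that were not called thus both held it more often than promoters in general. The stretches lie upstream of Ifit1 at chr19:34640765-34640833, Ifit3 at chr19:34583353-34583436, Gbp3 at chr3:142559979-142560034 and Irgm2 at chr11:58214893-58214942, all on the plus strand, and capitals mark the matches, with overlapping matches joined.
Ifit1: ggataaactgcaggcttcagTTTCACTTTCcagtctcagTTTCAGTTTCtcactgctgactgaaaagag
Ifit3: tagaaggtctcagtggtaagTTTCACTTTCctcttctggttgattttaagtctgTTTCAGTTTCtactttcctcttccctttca
Gbp3: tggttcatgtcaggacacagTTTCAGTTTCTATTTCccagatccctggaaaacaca
Irgm2: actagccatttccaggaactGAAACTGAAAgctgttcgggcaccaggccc
Ifit1, Ifit3 and Gbp3 have 2 matches each and Irgm2 has 1.

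Chemokines, adhesion molecules and NF-kB genes fell in part. Of 24 chemokines 3 were called lower and 0 higher, against 0.703% of all genes called lower. Without Fat1-IR 1 and 4 the count was 0, with or without WT-Con 5. Cxcl9 averaged 5.37 ± 2.57 FPKM in Fat1-IR and 17.2 ± 2.89 FPKM in Fat1-Con, Cxcl10 26.0 ± 10.3 FPKM in Fat1-IR and 66.0 ± 14.7 FPKM in Fat1-Con, and the membrane-bound Cx3cl1 5.54 ± 0.844 FPKM in Fat1-IR and 11.2 ± 1.42 FPKM in Fat1-Con. The first pair attract T cells and are also interferon targets. Ccl2, the monocyte attractant, had 134 to 189 FPKM in Fat1-IR and 233 to 260 FPKM in Fat1-Con and did not pass (log2 fold change -0.68 ± 0.27, adjusted p = 0.271), and neither did Cxcl1 (-0.60 ± 0.27).

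Of 13 leukocyte adhesion and costimulatory genes 4 were called lower and 0 higher (median -0.38), against 0.703% and 1.30% of all genes. Icosl, the ligand of the T-cell costimulator ICOS, had 5.40, 5.94, 5.47, 7.25 and 7.07 FPKM in Fat1-IR, against 12, 17.4, 16.2, 16.3 and 16.2 FPKM in Fat1-Con (log2 fold change -1.31 ± 0.13, limma adjusted p = 1.39e-05). Vcam1 and Icam1, on which leukocytes stick to endothelium, averaged 25.5 ± 2.19 and 103 ± 15.9 FPKM in Fat1-IR, against 58.3 ± 7.68 and 232 ± 18 FPKM in Fat1-Con, and the receptor Cd40 fell by 1.13 on the log2 scale. All 4 were lower in each Fat1-IR heart than in any Fat1-Con heart. Without Fat1-IR 1 and 4, 2 of the 13 were called, and 4 with WT-Con 5 left out as well. Of 21 NF-kB factors and feedback genes 3 were called lower and 0 higher (median -0.26): the kinase Ripk2 (8.38 ± 1.43 FPKM in Fat1-IR and 22.9 ± 1.70 FPKM in Fat1-Con), the inhibitor Tnip1 and the subunit Rela. The count was 1 without Fat1-IR 1 and 4 or under TPM scaling. It was 3 with WT-Con 5 left out in addition to Fat1-IR 1 and 4. Rela lost its call under 17 of 27 alternatives. Nfkbia, the inhibitor that NF-kB itself induces, averaged 141 ± 43.9 FPKM in Fat1-IR and 134 ± 15.7 FPKM in Fat1-Con and did not pass (log2 fold change 0.03 ± 0.19).

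Of 24 inflammatory cytokines and mediators 3 were called lower and 1 higher, with a median of 0.53. The shares over all genes were 0.703% called lower and 1.30% called higher. Csf1, the growth factor of macrophages, had 53.3, 72.3, 53.4, 68.2 and 52.2 FPKM in Fat1-IR, against 138, 155, 157, 186 and 161 FPKM in Fat1-Con (log2 fold change -1.42 ± 0.20, limma adjusted p = 0.000308). Tnfsf10 (TRAIL, a death ligand) and Acod1, the enzyme that makes itaconate, fell by 1.31 and 1.42. Acod1 lost its call under 17 of 27 alternatives. Il10, an anti-inflammatory cytokine, averaged 1.48 ± 0.614 FPKM in Fat1-IR and 0.354 ± 0.226 FPKM in Fat1-Con and rose. Il12b, the shared subunit of IL-12 and IL-23, averaged 0.754 ± 0.240 FPKM in Fat1-IR and 3.04 ± 1.18 FPKM in Fat1-Con, and the receptor gene Tlr1 0.671 ± 0.184 FPKM in Fat1-IR and 2.12 ± 0.504 FPKM in Fat1-Con. Gsdmd, the pore protein of pyroptosis and chosen after its values were seen, fell by 0.73 on the log2 scale. Of 12 macrophage markers 1 was called lower, Timd4 (1.59 ± 0.260 FPKM in Fat1-IR and 2.78 ± 0.435 FPKM in Fat1-Con), and the mean log2 of the list was 2.36 to 2.62 in Fat1-IR and 2.13 to 2.49 in Fat1-Con.

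**Figure D4:**
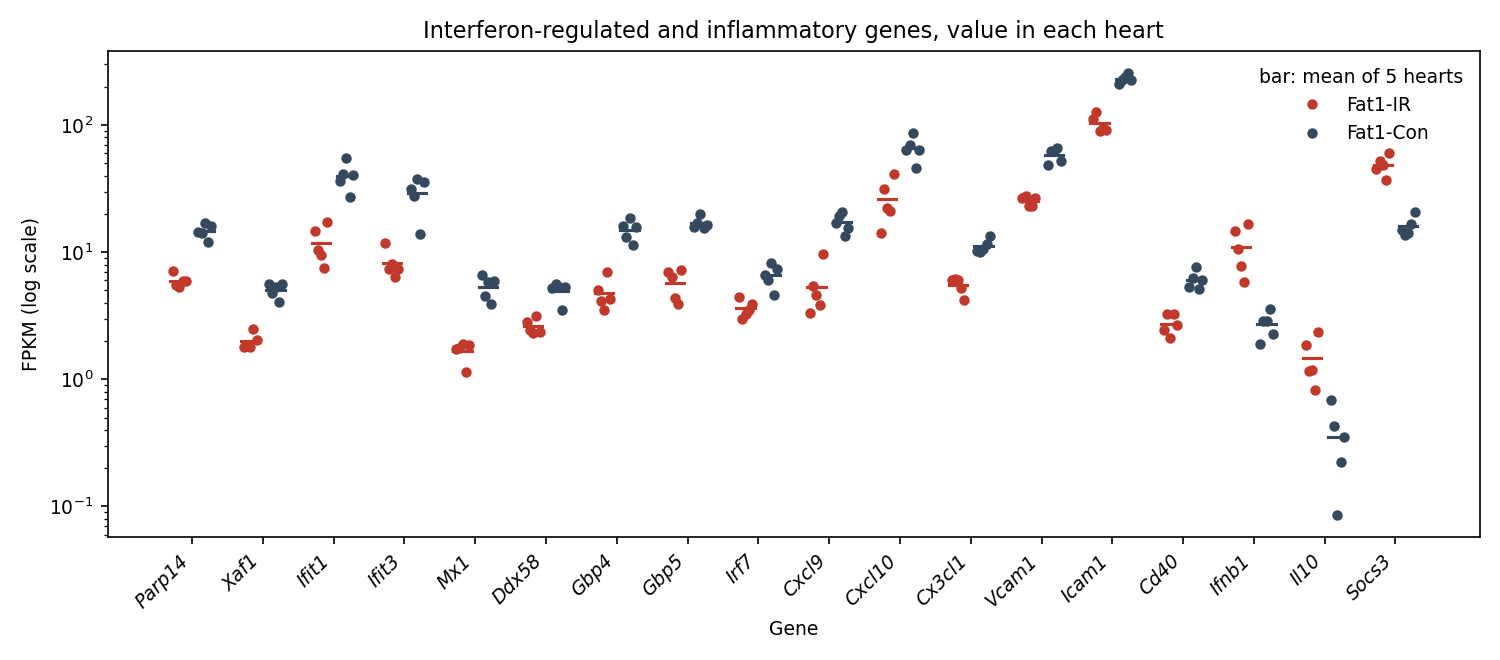
FPKM on a log axis of 18 interferon-regulated and inflammatory genes, with a red point for each Fat1-IR heart, a dark point for each Fat1-Con heart and a bar at each mean. The first 15 genes lie lower in Fat1-IR, and Ifnb1, Il10 and Socs3 lie higher.

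Other receptors and enzymes changed one by one. Cyp1a1, the target enzyme of the aryl hydrocarbon receptor, had 0.209, 0.291, 0.769, 0.761 and 0.649 FPKM in Fat1-IR, against 6.54, 4.48, 2.59, 7.56 and 5.91 FPKM in Fat1-Con, while the receptor gene Ahr averaged 1.79 ± 0.204 FPKM in Fat1-IR and 0.781 ± 0.120 FPKM in Fat1-Con. The enzyme and its receptor thus moved in opposite directions, with log2 fold changes of -3.15 ± 0.40 and 1.11 ± 0.18. Of 23 eicosanoid genes, which make or sense signals derived from polyunsaturated fatty acids, 2 were called higher, the thromboxane receptor Tbxa2r and the prostaglandin-degrading Hpgd, and 1 lower, the prostacyclin receptor Ptgir (2.19 ± 0.239 FPKM in Fat1-IR and 3.82 ± 0.221 FPKM in Fat1-Con). Among all genes 1.30% were called higher and 0.703% lower. The count of eicosanoid genes called higher was 0 with the fat-1 hearts fitted alone and 1 under TPM scaling or without Fat1-IR 1 and 4, and Hpgd lost its call under 17 of 27 alternatives. Of 21 genes of fatty acid desaturation, elongation and acyl transfer 1 was called, the elongase Elovl5, with 10.01, 10.5, 9.21, 11.3 and 9.34 FPKM in Fat1-IR, against 5.11, 6.68, 5.43, 5.33 and 5.76 FPKM in Fat1-Con (log2 fold change 0.82 ± 0.11).

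The apelin receptor Aplnr, the receptor that the study followed up, had 2.19, 1.70, 3.83, 2.45 and 2.22 FPKM in Fat1-IR, against 2.60, 2.26, 1.82, 0.437 and 2.0 FPKM in Fat1-Con. The groups overlapped and the log2 fold change of 0.56 ± 0.39 did not pass (limma adjusted p = 0.593). In the same fit the WT-IR against WT-Con change of Aplnr was 2.18, and the difference of -1.62 between the genotypes did not pass after adjustment over all genes. Rgs4, which shortens G protein signals, rose by a log2 fold change of 0.93 ± 0.16. Prkd2, a protein kinase D, had 6.24, 6.66, 6.28, 7.74 and 5.51 FPKM in Fat1-IR, against 13.5, 14.3, 13.8, 14.7 and 13.4 FPKM in Fat1-Con (log2 fold change -1.10 ± 0.13). Meox1, a homeobox factor of activated fibroblasts, averaged 4.83 ± 0.547 FPKM in Fat1-IR and 12.3 ± 0.767 FPKM in Fat1-Con, and the semaphorin Sema7a 12.2 ± 1.33 FPKM in Fat1-IR and 24.5 ± 1.13 FPKM in Fat1-Con.

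Growth and survival genes gave single calls, to be read beside the 1.30% of all genes called higher and 0.703% called lower. Of 27 insulin, PI3K, AKT and FOXO genes 2 were called higher, Irs2 and the growth factor binding protein Igfbp3 (9.63 ± 2.21 FPKM in Fat1-IR and 5.84 ± 0.709 FPKM in Fat1-Con). The count was 1 under TPM, median-of-ratios and nuclear scaling and without Fat1-IR 1 and 4, and Igfbp3 lost its call under 16 of 27 alternatives. Of 26 genes of the BCL2 family and death receptors 2 were called higher, Dedd2 and Bcl2l1, which encodes the survival protein BCL-xL (4.95 ± 1.66 FPKM in Fat1-IR and 2.70 ± 0.420 FPKM in Fat1-Con). Without Fat1-IR 1 and 4 the count was 0, and with WT-Con 5 left out as well it was 1. Bcl2l1 lost its call under 15 of 27 alternatives. Of 18 p53 targets, Phlda3 was called higher (log2 fold change 0.93 ± 0.24) and the death receptor Eda2r lower (-1.15 ± 0.24). Phlda3 lost its call under 16 of 27 alternatives. Klhl25, an adaptor of a ubiquitin ligase, averaged 1.11 ± 0.165 FPKM in Fat1-IR and 2.46 ± 0.325 FPKM in Fat1-Con. Fam84a, chosen after its values were seen, averaged 2.48 ± 0.581 FPKM in Fat1-IR and 0.477 ± 0.218 FPKM in Fat1-Con. The microRNA locus Mir6395 lies inside Saraf on the other strand and averaged 18.5 ± 5.45 FPKM in Fat1-IR and 2.27 ± 0.869 FPKM in Fat1-Con, while Saraf was not called. Whether the counting used strand is not given, so reads of Mir6395 may belong to Saraf, and this was not tested.

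Genes of energy supply, protein breakdown and translation had 0 calls in the lists made. These were 28 genes of fatty acid oxidation and ketone use (median -0.07), 25 of glycolysis and glycogen (0.18), 32 nuclear genes of the respiratory chain (0.21), 31 proteasome subunits (0.18) and 36 cytosolic ribosomal proteins (0.38). Of these 36, 18 had every Fat1-IR heart above every Fat1-Con heart, against 4.22% of all genes. The median of the 36 was 0.19 without Fat1-IR 1 and 4. The 13 protein-coding transcripts of the mitochondrial genome had a median of -0.34 with 0 called, and 0.10 without Fat1-IR 1 and 4. The calls in the next lists are to be read beside 1.30% of all genes called higher and 0.703% called lower. Of 20 targets of the hypoxia-inducible factors 1 was called higher, the prolyl hydroxylase of collagen P4ha1 (log2 fold change 1.03 ± 0.17). Of 15 cardiomyocyte stress genes 2 were called lower and 0 higher: Nrap and Xirp2, which sit at the ends of sarcomeres and at intercalated discs. Nrap had 99.3, 94.3, 76.2, 95.3 and 88.3 FPKM in Fat1-IR, against 198, 159, 154, 157 and 176 FPKM in Fat1-Con, and Xirp2 averaged 43.4 ± 9.36 FPKM in Fat1-IR and 99.2 ± 22.8 FPKM in Fat1-Con. The natriuretic peptide Nppb, a marker of wall stress, averaged 327 ± 126 FPKM in Fat1-IR and 254 ± 95.8 FPKM in Fat1-Con and did not pass (adjusted p = 0.677). Of 26 ion channel and calcium handling genes 1 was called higher, the potassium channel Kcna5 (4.36 ± 0.717 FPKM in Fat1-IR and 2.70 ± 0.178 FPKM in Fat1-Con). Under nuclear scaling 0 of the 26 were called.

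Whether the response of fat-1 hearts differed from that of WT hearts was tested as an interaction of genotype and IR, since a call in one genotype and none in the other does not show a difference. In WT hearts 367 genes (2.01%) were called higher and 216 (1.19%) lower after IR. Of the 236 genes higher in fat-1, 106 (44.9%, or 28.9% of the WT list) were also called higher in WT, and of the 128 lower, 81 (63.3%, or 37.5% of the WT list) were also called lower in WT. The interaction passed for 1 of 18219 genes (0.00549%) at an adjusted p under 0.05, and 968 genes (5.31%) had an unadjusted p under 0.05. The gene was Nle1, a factor for maturation of the large ribosomal subunit. It had 6.17, 7.73, 5.67, 7.0 and 5.82 FPKM in Fat1-IR, against 1.80, 1.64, 1.45, 1.73 and 1.80 FPKM in Fat1-Con, and 2.70, 2.70, 3.27, 1.93 and 2.06 FPKM in WT-IR, against 1.84, 1.46, 2.50, 2.38 and 2.41 FPKM in WT-Con. Its log2 fold change was 1.88 in fat-1 and 0.25 in WT hearts, a difference of 1.63 (limma adjusted p = 0.00976). Of 28 genes of ribosome biogenesis Nle1 was the only one called. It lies on chromosome 11 at 82900768 to 82908411, 2139 bp from the start of Unc45b on the other strand, which encodes the HSP90 co-chaperone of myosin. Unc45b had 38.3 to 73.3 FPKM in Fat1-IR and 32.6 to 35.4 FPKM in Fat1-Con, without overlap, and did not pass (log2 fold change 0.53 ± 0.15, adjusted p = 0.0697), whereas the antisense transcript Slfn5os, which overlaps the far end of Unc45b and also Slfn5, was called higher (2.77 ± 0.862 FPKM in Fat1-IR and 0.666 ± 0.291 FPKM in Fat1-Con). Under nuclear scaling, with the replicate block, and without Fat1-IR 1 and 4 no gene passed the interaction.

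The chaperones changed more in fat-1 than in WT hearts by their point values, but not by the adjusted test. All 15 called chaperones had an interaction above 0 with an unadjusted p under 0.05, and their smallest adjusted p was 0.805. These 15 were picked by the fat-1 change that enters the interaction, so this count is not independent of their choice. Of all 84 chaperone genes tested, 75 had an interaction above 0, against 53.9% of all genes. Without Fat1-IR 1 and 4 the count was 60 of 84, against 41.5% of all genes, and without WT-Con 5 in addition it was 57 of 84, against 39.1%. It was lowest under nuclear scaling, at 52 of 84, against 35.2% of all genes, and 67 of 84 with array weights, against 46.4%. Of the 15, 6 were also called higher in WT hearts. In WT-IR hearts Hspa1b ranged from 63.3 to 832 FPKM, so that the lowest Fat1-IR heart (706 FPKM) lay above all WT-IR hearts but 1. Of 50 interferon genes, 26 were called lower in fat-1 and 19 of those in WT too, with 2 of the 26 at an unadjusted interaction p under 0.05 and a smallest adjusted p of 0.831. A different size of the interferon change in fat-1 and WT hearts was therefore not detected with these hearts.

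**Figure D5:**
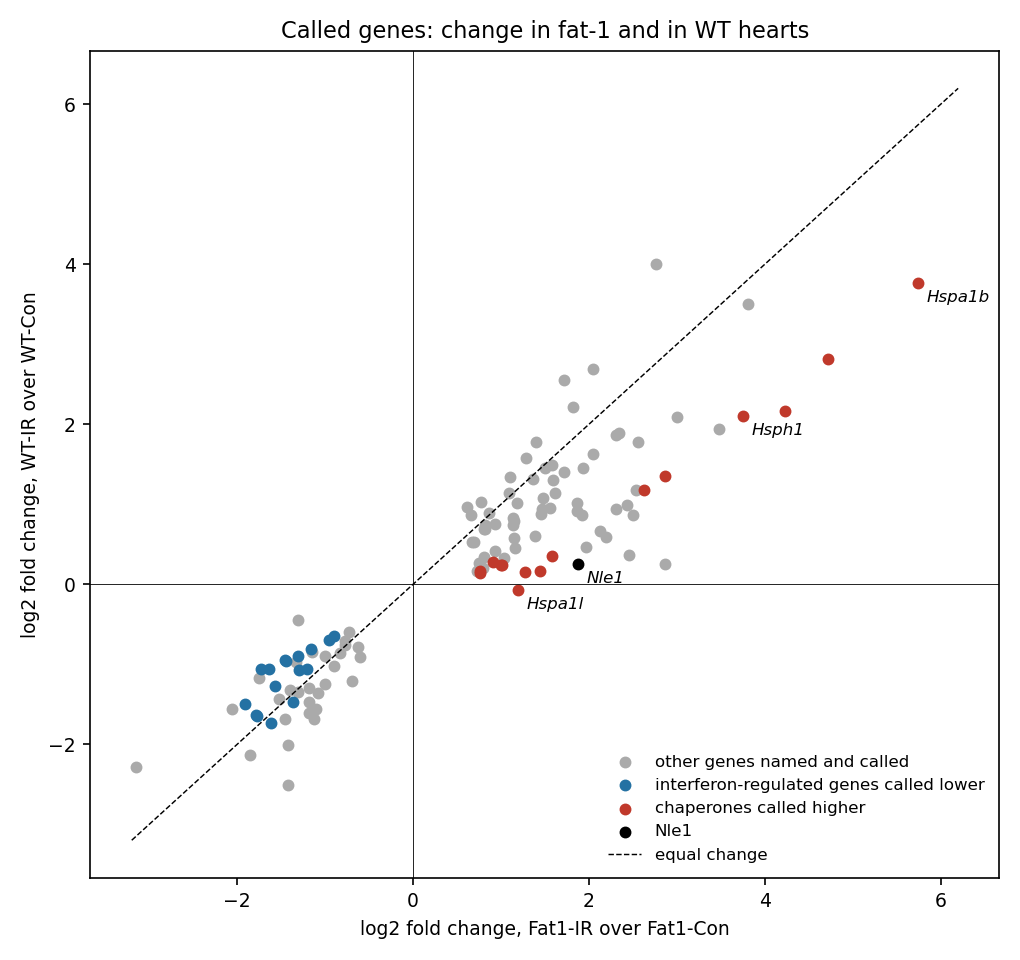
Log2 fold change of Fat1-IR over Fat1-Con on the x axis and of WT-IR over WT-Con on the y axis for called genes named in the text; red points are the 15 chaperones, blue points interferon-regulated genes, the black point Nle1, and the dashed line marks equal change. The chaperones lie below the line, and Nle1 is the 1 gene whose difference passed the adjusted test.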

How the data were processed

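Ventricular RNA of 20 mouse hearts was sequenced. The authors aligned reads with HISAT2 to mm10 and counted them with featureCounts (versions not given in the sources used here), and deposited FPKM per gene. From the deposited FPKM, log2(FPKM + 0.1) was fitted for the 18219 genes averaging 0.1 FPKM or more, in 1 limma 3.58.1 model (R 4.3.3) of 4 groups with 16 residual degrees of freedom. A further 13655 genes lay below the filter. P-values were two-sided with Benjamini-Hochberg adjustment over all tested genes, and the interaction was a contrast of the same model. The extract protocol in the labels calls the 5 samples of a group independent.

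With exon lengths of GENCODE M21, 98.5% of 31217 genes gave whole fragments (within 0.02) in every library. Values of 1000 fragments or more were accepted without this check. Genes with whole fragments gave the depths and a voom alternative. Genes named in the text were the 15 with the smallest p in each direction without overlap, the 10 with the largest fold, called list members and up to 4 abundant members per list not called, the study's receptor, the top interactions, markers and noncoding genes. Not every gene that qualified is named, and 1 result is not reported here. The 47 gene lists, the members and this rule were chosen with earlier results of these data known, so the lists carry no set test.

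On simulated data for this comparison (17624 genes) the fit recovered 14%, 56%, 72% and 82% of 50 genes each changed by 1.5, 2, 4 and 8 fold, with 8 false calls among 17424 unchanged genes. Alternatives covered scaling, pseudocount, filter, weights, thresholds and left-out hearts. Promoters were searched in Python 3.11.15 and similar transcripts aligned with blastn 2.17.0. Genome sequence came only from the RefSeq promoter windows, and no protein sequence was used here.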

Additional observations from a re-analysis of the deposited data

Results flagged for a closer look

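In 26 of 308 groups of 5 values, 1 heart lay far from the other 4 by Dixon's criterion (0.71), and chance marks about 1 in 20 groups. Fat1-IR 1 was the heart in question for Hspa4 (51.4 FPKM), Hsp90ab1 (1026 FPKM), Hspd1 (422 FPKM), Hspe1 (197 FPKM), Hspa9 (285 FPKM), Hspd1-ps3 (13.4 FPKM), Gm12390 (1.33 FPKM), Ier2 (112 FPKM), Ifit3b (3.99 FPKM), Nfkbia (217 FPKM) and Cfd (77.3 FPKM), each above the other Fat1-IR hearts, and for Hspb6 (140 FPKM), below them. The same heart had the highest cardiomyocyte (9.58) and endocardial (2.57) marker means on the log2 scale and the lowest mitochondrial share (13.9%).

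Fat1-IR 4 had the lowest Mx1 (1.13 FPKM) of its group and the highest lymphocyte (2.20) and neutrophil (-1.16) marker means. Fat1-IR 5 had the highest Irgm2 (11.9 FPKM). Among Fat1-Con hearts, heart 4 stood apart for Irs2 (12.8 FPKM) and Fam84a (0.853 FPKM), both high, and for Ifit3b (2.55 FPKM) and Ddx58 (3.50 FPKM), both low. Fat1-Con 5 was high for Ahsa2 (4.87 FPKM), Fat1-Con 2 for Gm48565 (0.0654 FPKM), and Fat1-Con 1 was low for Icosl (12 FPKM).

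Nle1 was the 1 gene whose IR change differed between fat-1 and WT hearts by the adjusted limma interaction test (log2 difference 1.63, adjusted p = 0.00976).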

How the results depend on the processing

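Against 236 genes higher and 128 lower, array weights gave 428 higher and 317 lower, and a fold over 2 gave 148 and 68. Without Fat1-IR 1 and 4, 129 genes were higher and 0 passed the interaction, and without WT-Con 5 in addition 216 were higher, 234 lower and 0 passed the interaction. Nuclear scaling also left 0 interaction calls. Leaving out 1 fat-1 heart gave 161 (without Fat1-Con 3) to 270 (without Fat1-IR 3) genes higher, 79 (without Fat1-Con 3) to 125 (without Fat1-IR 1) lower, and 1 to 2 interaction calls, 2 of them without Fat1-Con 4. Replicate numbers did not pair the hearts (correlations of -0.04 to 0.05), and a fit with the replicate number as a block gave 231 higher, 118 lower and 0 interaction calls. Of 123 called genes named in the text, 59 kept their call under all 27 alternatives, 12 kept it under the 25 or 26 that could test them, and 52 lost it at least once. Acod1, Bcl2l1, Bmp2, Cfd, Hpgd, Hspd1-ps3, Igfbp3, Phlda3 and Rela lost it most often. The log2 fold changes of 3 genes that were not called changed sign. That of Bst2 was -0.11 with array weights and -0.19 without Fat1-IR 1 and 4, and -0.00844 (without Fat1-IR 1) to 0.34 (without Fat1-IR 3) with 1 heart left out. That of Nfkbia was -0.095 with array weights, -0.033 with median-of-ratios scaling, -0.036 with nuclear scaling and -0.15 without Fat1-IR 1 and 4, and -0.13 (without Fat1-IR 1) to 0.14 (without Fat1-IR 3) with 1 heart left out, among these -0.00528 without Fat1-Con 2. That of Hspa9 was -0.012 without Fat1-IR 1 and 4, and -0.00745 (without Fat1-IR 1) to 0.19 (without Fat1-IR 3) with 1 heart left out. Leaving out WT-Con 5 in addition gave the same values for these genes. The cause was not tested.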
